A study of Mus musculus with 12 samples.

Results

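Egfr, the gene of the epidermal growth factor receptor, and E230015J15Rik, a transcript read from the opposite strand inside the Egfr gene, were followed through 12 RNA sequencing libraries of mouse skin cells. They are 2 of the 25965 genes listed in each library, taken by name, and both have a value in all 12. The pair was chosen by its measured levels, which were already known to differ between knockout and control libraries. These levels are therefore described here with their errors and without a p-value, and their difference between genotypes supports no other statement.

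The study sequenced sorted cells of 3 skin compartments, labelled IFE, ORS and HFSC, to compare Egfr knockout with control mice in work on hair shaft differentiation. ORS is the outer root sheath, the layer that surrounds the growing hair, and HFSC are hair follicle stem cells. The labels write IFE beside "inner root sheath", although the abbreviation commonly stands for interfollicular epidermis, so it is kept as an abbreviation. Each of the 6 groups of compartment and genotype held 2 libraries.

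All 6 control libraries have the genotype EGFR_fl_fl, that is, 2 intact floxed copies of Egfr that Cre recombinase can cut. The 2 IFE and 2 ORS knockout libraries have the genotype EGFR_delta_ep, and the 2 HFSC knockout libraries EGFR_delta_LGR5. The labels name neither the promoter that drives the Cre nor the exon that is removed, and they give no age and no treatment. Libraries are named here by the code in their title. The IFE controls are E341 and E360, the IFE knockouts E358 and E359, the ORS controls E341 and E344, and the ORS knockouts E358 and E359. The HFSC controls are L136 and L94, and the HFSC knockouts L95 and L97. Whether libraries within a group stem from different animals is not labelled, so the spread between them, which all p-values measure, may be technical. The exception is the ORS control pair, of which E341 was male with 29 reads of Xist and E344 female with 41490, so that these libraries are of different animals.

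EGFR is a receptor tyrosine kinase of the cell surface. When a ligand such as HB-EGF, amphiregulin or TGF-alpha binds, it pairs with a second EGFR or with ERBB2 or ERBB3 and signals through RAS and ERK, PI3K and AKT, PLC-gamma and STAT3. In skin it keeps basal keratinocytes dividing and is known to be needed for normal hair growth. Antisense transcripts are RNAs read from the strand opposite a gene. Some are known to lower or raise the output of the gene they overlap, and many have no known role. The role of E230015J15Rik is not assumed here.

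The deposited coordinates place Egfr at chr11:16752203-16918158 on the plus strand of mm10. GENCODE M21, an annotation of the same build, has the identical span as the protein-coding gene ENSMUSG00000020122.16, with 5 transcripts, 28 exons in the longest one and 11.326 kb of merged exons. E230015J15Rik lies at chr11:16815431-16830702 on the minus strand, and the same span and strand belong to ENSMUSG00000085091.1 in GENCODE, where it is classed as antisense and named Egfros. Its single annotated transcript has 2 exons of 259 and 3804 bases. It starts 78.5 kb after the Egfr start and ends 63.2 kb after it, wholly inside the first intron of the longest Egfr transcript, which runs from 16752571 to 16858895 (106.3 kb).

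The exons of the 2 genes share 0 bases, and 0 of the 30 merged exon intervals of Egfr fall inside the antisense span. The longest run of antisense exon sequence that is exactly complementary to an Egfr transcript was 12 bases. The overlap is therefore one of gene spans and not of exons. Whether the counting used strand is not given in the sources used here, so reads from the 2 strands of the intron, antisense or unspliced Egfr, cannot be told apart.

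**Figure D1:**
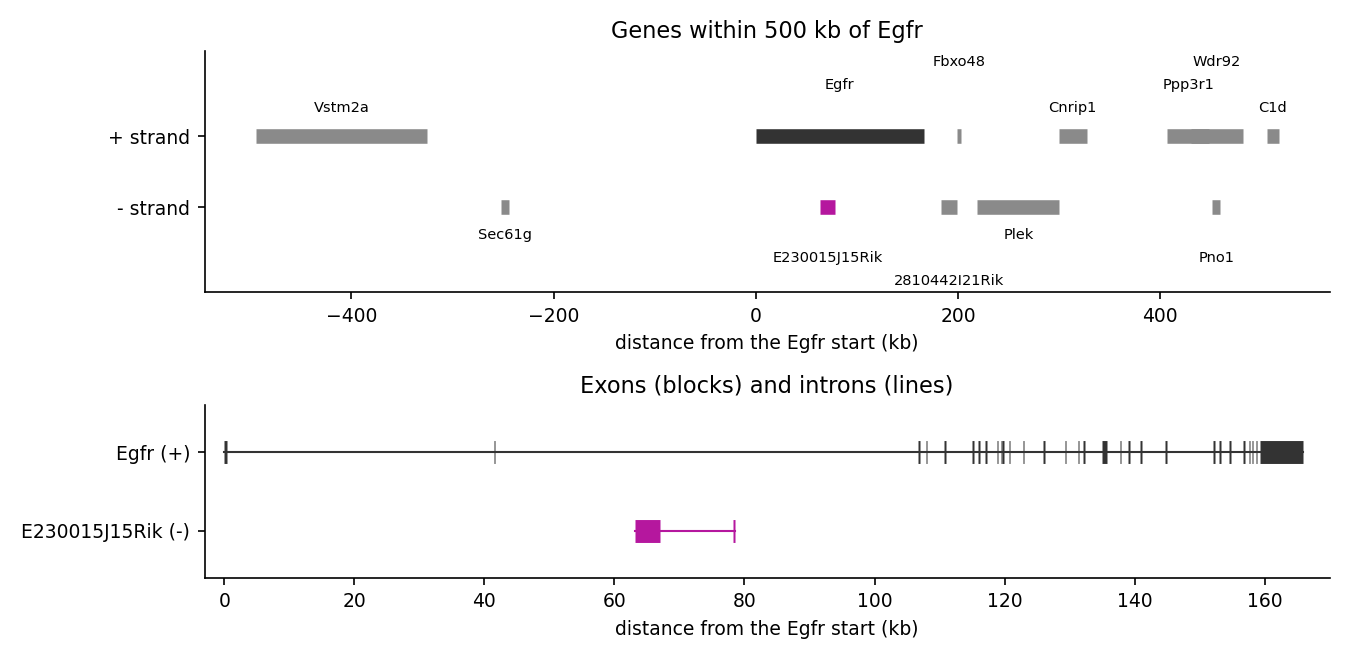
The upper panel shows the spans of all genes listed within 500 kb of Egfr on each strand, and the lower panel the exons of Egfr and of E230015J15Rik, both by distance from the Egfr start in kb. The antisense gene sits between 63.2 and 78.5 kb, in a stretch with 0 Egfr exons.

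The sequences that each transcript starts from are printed to show that the 2 are read from unlike start regions. Each promoter line gives the 250 bases before the RefSeq start (GRCm38.p6), 5′ to 3′ on the strand of the gene, with CG dinucleotides in capitals. The Egfr window is chr11:16751953-16752202 on the plus strand, and the antisense window chr11:16830751-16831000 on the minus strand, from the RefSeq entry named Egfros. The third line is exon 1 of the antisense transcript at chr11:16830444-16830702, minus strand, from GENCODE M21, which starts the transcript slightly downstream of RefSeq.
Egfr promoter: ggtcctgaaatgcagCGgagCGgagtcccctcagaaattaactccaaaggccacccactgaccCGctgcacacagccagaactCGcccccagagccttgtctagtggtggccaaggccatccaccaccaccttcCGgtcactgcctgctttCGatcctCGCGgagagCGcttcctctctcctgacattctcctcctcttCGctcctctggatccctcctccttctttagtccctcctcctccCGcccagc
E230015J15Rik promoter: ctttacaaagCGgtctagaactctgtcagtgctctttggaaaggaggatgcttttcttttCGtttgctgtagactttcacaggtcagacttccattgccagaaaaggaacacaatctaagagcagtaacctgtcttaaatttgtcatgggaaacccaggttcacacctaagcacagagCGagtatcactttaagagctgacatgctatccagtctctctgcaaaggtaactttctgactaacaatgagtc
E230015J15Rik exon 1: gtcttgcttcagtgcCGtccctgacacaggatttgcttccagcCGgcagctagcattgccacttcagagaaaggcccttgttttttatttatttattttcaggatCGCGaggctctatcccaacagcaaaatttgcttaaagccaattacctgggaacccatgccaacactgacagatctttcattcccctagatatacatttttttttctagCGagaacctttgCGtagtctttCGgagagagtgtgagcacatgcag

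The Egfr window held 11 CG dinucleotides at 60.8% G and C, and the antisense window 3 at 42.8%. Over 32851 RefSeq promoter windows of the same length, the median was 6 CG dinucleotides and 52.4% G and C. Of these windows, 35.6% held as many CG dinucleotides as the Egfr window or more, and 71.0% as many as the antisense window or more. A total of 3 short motifs was searched on both strands, none of which overlaps another. GGGCGG, the core bound by SP1-type factors, had 1 match in the Egfr window and 0 in the antisense window (32.7% of all windows hold it). TATAAA had 0 matches in both (12.4% of windows), as had TGACTCA, an AP-1 element (4.46% of windows). No match says only that these letters are not in the window.

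Reads in genes came to between 11.4 and 13.2 M in the IFE libraries, between 24.7 and 27.7 M in ORS and between 11.5 and 16.8 M in HFSC. Levels are given as CPM, the reads of a gene scaled to 1e6 reads in genes with TMM factors, which correct for differences in RNA composition. They come from bulk RNA, in which fewer cells of a type and less RNA per cell cannot be told apart. In CPM, 3 reads equal 0.107 to 0.268 depending on the library. Intervals are exact 95% binomial intervals and cover counting error only.
Marker genes were checked against the labels. The summed level of 6 basal keratinocyte markers (Krt5, Krt14 and others) was 18779 to 24550 CPM in IFE, 6592 to 8831 CPM in ORS and 16744 to 18430 CPM in HFSC. The 6 suprabasal epidermis markers summed to at least 6067 CPM in IFE and at most 465 CPM in ORS. The bulge stem cell marker Cd34 was at 0 in IFE, at most 5.88 CPM in ORS and at least 1330 CPM in HFSC. The inner root sheath list summed to 875 to 1049 CPM in IFE, above ORS (301 to 383 CPM) and HFSC (437 to 607 CPM). Gata3, a transcription factor also known in epidermis, made up 857 to 1010 CPM of it in IFE. The keratin Krt25 of that list was at 0 in the IFE libraries and in 3 of the 4 ORS libraries, and at 1.04 to 25.6 CPM in HFSC. Leukocyte markers summed to 60.5 CPM at most with Ptprc at 0 in every library, and endothelial markers to 7.62 CPM at most. The libraries also differed in sex by Xist and Y-linked reads: in IFE the controls were male and the knockouts female, in HFSC the controls female and the knockouts male, and in ORS only control E341 was male. In IFE and HFSC sex and genotype cannot be told apart.

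Egfr reads were close to absent from the IFE knockout libraries, strongly and unevenly reduced in the ORS knockouts, and moderately lower in the HFSC knockouts. In the IFE controls Egfr stood at 116 CPM in E341 (1376 reads, 95% interval 109 to 122) and 156 CPM in E360 (1742 reads, 148 to 163). In the IFE knockouts it had 0 reads in E358 (3 reads would be 0.238 CPM, and the exact interval reaches 0.292 CPM) and 4 reads in E359 (0.319 CPM, interval 0.0870 to 0.818). The groups were far apart: the lower control was 362 times the higher knockout.

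The IFE group means were 135.5 ± 28.3 CPM in controls and 0.160 ± 0.226 CPM in knockouts (SD, n = 2 each), so the knockouts held 0.118% of the control level. The log2 fold change of knockout against control was -7.72 with a standard error of 0.95, on the scale of log2(CPM + 0.5), which understates changes of genes near 0. It was the third lowest of 14449 genes tested.

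In the ORS controls Egfr stood at 277 CPM in E341 (7781 reads) and 247 CPM in E344 (6424 reads). The ORS knockouts had 3.72 CPM in E358 (100 reads, interval 3.02 to 4.52) and 55.2 CPM in E359 (1463 reads, interval 52.4 to 58.1). Both knockouts lay below both controls, and they differed from each other beyond counting error: E358 held 1.42% of the control mean and E359 21.1%.

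The means were 262 ± 21.1 CPM in ORS controls and 29.4 ± 36.4 CPM in ORS knockouts (SD, n = 2 each), or 11.2% of control, and the log2 fold change was -4.10 (standard error 0.95), the eighth lowest of 14449. This value rests on which knockout is counted: it was -5.96 without E359 and -2.23 without E358. E359 exceeded E358 by 14.8-fold, and 1.34% of tested genes differed more between the 2 libraries.

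Other cell markers were compared between the 2 ORS knockouts because their Egfr levels differ. The 6 melanocyte markers summed to 38.8 CPM in E359 (5 with reads, Tyr at 0) and 14.7 CPM in E358 (2 with reads, Tyr, Tyrp1, Mlana and Sox10 at 0), against 19.8 to 20.1 CPM in the ORS controls. The 6 fibroblast markers summed to 92.6 CPM in E359 and 122 CPM in E358, with Pdgfra and Col3a1 at 0 in both. The 5 endothelial markers summed to 7.62 CPM in E359 and 0 in E358, and the smooth muscle and pericyte markers to 6.30 and 0.892 CPM. These sums differed in both directions. Suprabasal markers were at 178 CPM in E359 and 454 CPM in E358, and basal keratinocyte markers at 8831 and 6592 CPM. Bulge markers were at 7846 and 9417 CPM. Their part in the residual Egfr reads was not tested.

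In the HFSC controls Egfr stood at 389 CPM in L136 (4398 reads, interval 378 to 401) and 431 CPM in L94 (6545 reads, interval 420 to 441). The HFSC knockouts had 335 CPM in L95 (5460 reads, interval 326 to 343.9) and 330 CPM in L97 (5290 reads, interval 321 to 339). Both knockouts were below both controls, with the lower control at 1.16 times the higher knockout.

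The HFSC means were 410.1 ± 29.3 CPM in controls and 332 ± 3.44 CPM in knockouts (SD, n = 2 each), so the libraries labelled knockout kept 81.1% of the control level. The log2 fold change was -0.30 (standard error 0.15), which ranked 3320 from the bottom of 13778 genes. Lgr5, the stem cell gene that names this deletion, was at 132 and 336 CPM in the controls and 357 and 284 CPM in the knockouts. Most Egfr reads were thus still present in the libraries labelled knockout. Reads of single exons were not analysed here. Of the 11 marker lists, 3 separated HFSC knockouts from controls without overlap. Among single genes tested in HFSC, 19.7% did so upward and 18.3% downward, so nothing is read from this count. Bulge stem cell markers summed to 37597 to 40500 CPM in controls and 22882 to 27712 CPM in knockouts, suprabasal markers to 2278 to 2444 and 1975 to 2043 CPM, and outer root sheath and companion layer markers to 3429 to 4357 and 5304 to 5548 CPM. Krt15 made up most of the bulge sum, at 36648 (L136), 32712 (L94), 23427 (L95) and 19219 CPM (L97). The other bulge genes of the list, Cd34 and Sox9 among them, overlapped between the genotypes. Sbsn made up most of the suprabasal sum, at 2130 (L136), 2289 (L94), 1964 (L95) and 1872 CPM (L97). In the outer root sheath and companion layer list, Krt6a was higher in both knockouts and Krt17 overlapped. The part of these lists in the Egfr difference was not tested.

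**Figure D2:**
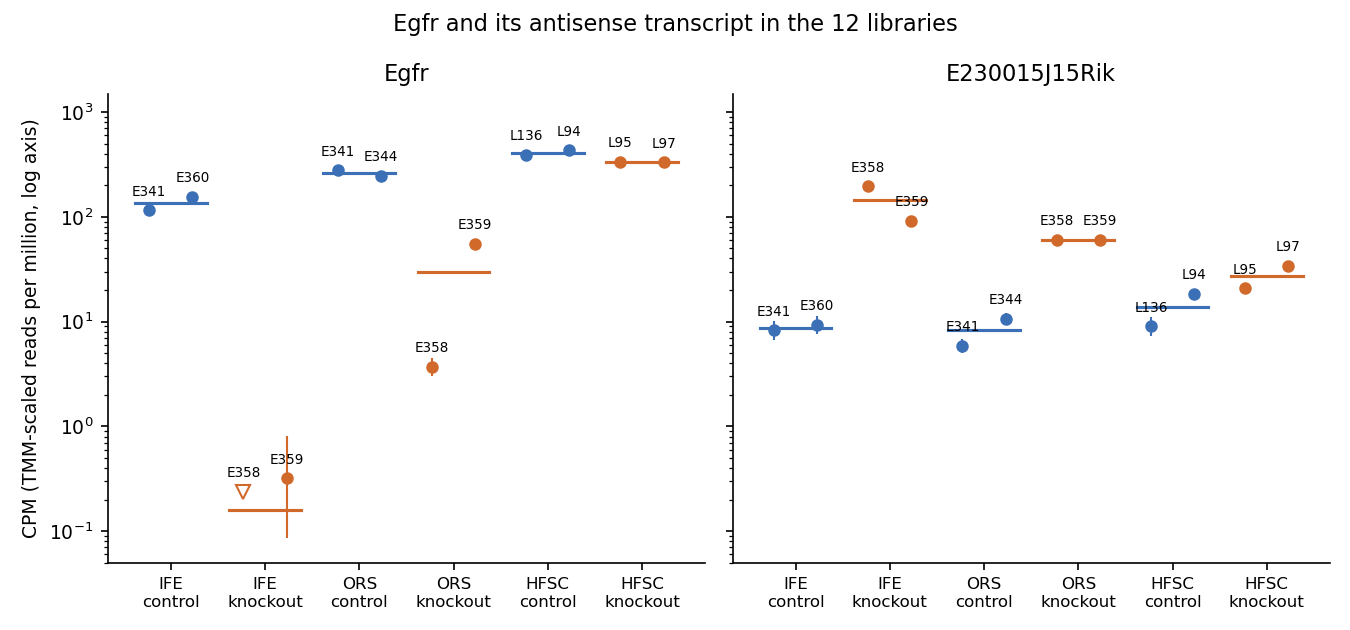
Each point is a library, with CPM on a log axis and the exact 95% interval for counting error, and each horizontal line is a group mean. The open triangle marks IFE knockout E358, with 0 Egfr reads, at the 0.238 CPM that 3 reads would give. Egfr is lower and E230015J15Rik higher in the knockout libraries of each compartment, with no overlap.

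The antisense transcript was higher in the knockout libraries of every compartment. Its fold change was largest in IFE, smaller in ORS and smallest in HFSC. As any use of strand is not given, reads of unspliced Egfr cannot be told apart from it in these levels. In the IFE controls E230015J15Rik stood at 8.23 CPM in E341 (98 reads, interval 6.68 to 10.03) and 9.28 CPM in E360 (104 reads). In the IFE knockouts it reached 196 CPM in E358 (2469 reads) and 92.0 CPM in E359 (1152 reads). The knockouts differed from each other, but the lower one was still 9.91 times the higher control.

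The IFE means were 8.76 ± 0.748 CPM in controls and 144 ± 73.3 CPM in knockouts (SD, n = 2 each), a 16.4-fold difference. The log2 fold change was 3.87 (standard error 0.52), the sixteenth highest of 14449 genes. Of the 11 marker lists, 6 also separated IFE knockouts from controls without overlap. Among single genes tested in IFE, 13.6% did so upward and 17.1% downward, so nothing is read from this count. Outer root sheath and companion layer markers were higher in the knockouts (3783 to 5067 against 2187 to 3275 CPM), as were the inner root sheath list (1001 to 1049 against 875 to 924 CPM), the fibroblast list (234 to 299 against 177 to 198 CPM) and the endothelial list (1.597 to 6.34 CPM against 0). The fibroblast sum was mostly Dcn, at 212 and 279 CPM in knockouts and 127 and 185 CPM in controls, while Pdgfra, Col1a1 and Col3a1 were at 0 in both knockouts and Pdgfra reached 7.32 CPM in control E360. Bulge markers (4538 to 5162 against 5271 to 6114 CPM) and sebaceous gland markers (63.5 to 79.3 against 107 to 121 CPM) were lower. Krt17 made up most of the outer root sheath sum, at 1992 (E341), 3133 (E360), 3596 (E358) and 4896 CPM (E359). Krt6a and Krt6b of the same list were lower in both knockouts. The bulge sum was mostly Krt15, at 5912 (E341), 5011 (E360), 4761 (E358) and 4235 CPM (E359). Sox9 of that list was higher in both knockouts. The only endothelial genes with reads were Cdh5 in E358 and Pecam1 in E359. The part of these lists in the levels of Egfr and the antisense transcript was not tested.

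In the ORS controls the antisense transcript stood at 5.87 CPM in E341 (165 reads, interval 5.01 to 6.84) and 10.7 CPM in E344 (278 reads, interval 9.47 to 12.02). The ORS knockouts were nearly equal, at 60.5 CPM in E358 (1628 reads) and 60.3 CPM in E359 (1599 reads). This pair is the same that differed 14.8-fold in Egfr: the antisense level of E359 was 0.997 times that of E358, within counting error.

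The ORS means were 8.28 ± 3.41 and 60.4 ± 0.146 CPM (SD, n = 2 each), a 7.30-fold difference with a log2 fold change of 2.85 (standard error 0.52), the 36th highest of 14449. Of the 11 marker lists, 6 separated ORS knockouts from controls without overlap. Among single genes tested in ORS, 14.6% did so upward and 16.8% downward, so nothing is read from this count. Bulge markers (7846 to 9417 against 7195 to 7305 CPM), the inner root sheath list (368 to 383 against 301 to 329 CPM) and the fibroblast list (92.6 to 122 against 76.0 to 86.9 CPM) were higher in the knockouts. Krt15 made up most of the bulge sum, at 4230 (E341), 4196 (E344), 5177 (E358) and 4984 CPM (E359). Lgr5 was also higher in both knockouts, while Cd34, Lhx2, Sox9 and Nfatc1 overlapped. Gata3 made up most of the inner root sheath sum, at 321 (E341), 282 (E344), 339 (E358) and 355 CPM (E359). Lum of the fibroblast list was lower in both knockouts. Outer root sheath and companion layer markers (3931 to 4055 against 4375 to 4654 CPM), sebaceous gland markers (66.3 to 87.4 against 113 to 252 CPM) and smooth muscle and pericyte markers (0.892 to 6.30 against 6.53 to 14.0 CPM) were lower. Their part in the levels of both genes was not tested.

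In the HFSC controls the antisense transcript stood at 9.03 CPM in L136 (102 reads, interval 7.36 to 10.96) and 18.4 CPM in L94 (279 reads, interval 16.3 to 20.7). The HFSC knockouts had 20.9 CPM in L95 (340 reads, interval 18.7 to 23.2) and 34.0 CPM in L97 (545 reads, interval 31.2 to 37.0). The groups did not overlap, but only just, since the counting intervals of L94 and L95 do.

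The HFSC means were 13.7 ± 6.60 and 27.4 ± 9.30 CPM (SD, n = 2 each), a 2.003-fold difference with a log2 fold change of 1.02 (standard error 0.47). The 3 marker lists named beside Egfr in HFSC moved with this change as well, and their part was not tested. The change ranked 879th from the top of 13778 genes and depended on single libraries: it was 0.52 without control L136, 0.67 without knockout L97, 1.36 without knockout L95 and 1.51 without control L94.

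Both genes thus separated knockout from control libraries in all 3 compartments, Egfr downward and the antisense transcript upward. With 2 libraries against 2, many genes do so in a single compartment. Both knockouts were above both controls for 13.6% of tested genes in IFE, 14.6% in ORS and 19.7% in HFSC, and below them for 17.1%, 16.8% and 18.3%. Over the 13117 genes tested in all 3, 0.549% were higher without overlap in each compartment and 0.404% lower. The pair was chosen for this contrast, so nothing is read from these shares.

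The same contrast was tested for every gene with limma, at a Benjamini-Hochberg adjusted p under 0.05. It called 0 of 14449 genes in IFE (0%; 1088 at an unadjusted p under 0.05), 0 of 14449 in ORS (0%; 491 unadjusted) and 5 of 13778 in HFSC (0.0363%; 1052 unadjusted). limma-voom called 0 in each. The uncalled genes of IFE and ORS include Egfr itself, so a gene that was not called may still differ strongly. Among the HFSC genes, Ddx3y, Eif2s3y, Uty and Xist are sex-linked. They were named after their values were seen. Leaving out a library moved these counts, to 53 in IFE without knockout E359, to 2 in ORS without control E344 (Xist and Tsix), and in HFSC to 19 without L136, 29 without L94, 2 without L95 and 1 without L97.

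Genes that lie wholly inside another listed gene on the opposite strand give a view of what such transcripts did. Of 730 of them tested in IFE and ORS, the antisense transcript of Egfr had the third highest log2 fold change in IFE and the second highest in ORS, where the medians over these genes were -0.08 and -0.06. In HFSC it was 59th of 638, with a median of 0.03. These ranks come from the contrast for which the pair was chosen and are given as a description.

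**Figure D3:**
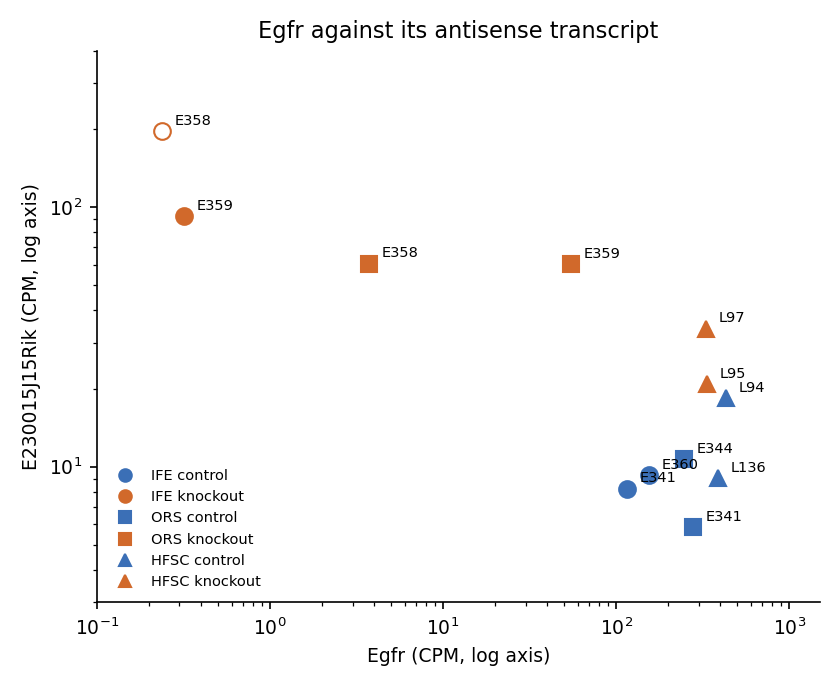
Each point is a library, with Egfr on the x axis and E230015J15Rik on the y axis, both in CPM on log axes, and the open circle is IFE knockout E358 with 0 Egfr reads, placed at 0.238 CPM. The IFE and ORS knockouts lie at 60.3 CPM of the antisense transcript or above, and all controls at 18.4 CPM or below. The 2 ORS knockouts differ in Egfr and not in the antisense transcript.

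The ratio of the 2 transcripts was furthest from that of the controls in the IFE and ORS knockouts. Controls held between 2.12 (ORS E341) and 7.12 (IFE E341) antisense reads per 100 Egfr reads. The HFSC knockouts held 6.23 in L95 and 10.3 in L97, so L95 fell inside the range of the controls. In the ORS knockouts the figure was 109 in E359 and 1628 in E358, and in IFE knockout E359 it was 28800, resting on 4 Egfr reads. In the 4 IFE and ORS knockouts, antisense reads outnumbered Egfr reads.

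Per kb of merged exon, Egfr exceeded the antisense transcript in every control, by between 5.04-fold (IFE E341) and 16.9-fold (ORS E341). It still did so in the HFSC knockouts, by 5.76-fold in L95 and 3.48-fold in L97. The order turned in the ORS knockouts, where the antisense transcript was 3.05-fold above Egfr in E359 and 45.4-fold above it in E358.

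Across compartments, the control level of Egfr was lowest in IFE (135.5 CPM), higher in ORS (262 CPM) and highest in HFSC (410.1 CPM), with no overlap between neighbours in that order. Among all 6 groups the order was HFSC control, HFSC knockout, ORS control, IFE control, ORS knockout and IFE knockout, again without overlap. The place of ORS depends on the scaling. Reads in genes were 50.6% to 54.6% of the deposited library total in ORS, 27.8% to 29.6% in IFE and 26.9% to 28.9% in HFSC. Per 1e6 of the deposited total, ORS controls were at 132 and 152, above the HFSC controls at 110.1 and 120.1, and the IFE controls were at 32.6 and 43.3. Only the lowest place of IFE among the controls held on both scales.

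For the antisense transcript the control groups were not distinct. HFSC controls averaged 13.7 CPM, IFE controls 8.76 CPM and ORS controls 8.28 CPM, and each group overlapped the next. The knockout groups did not overlap in CPM, in the order IFE, ORS, HFSC. Per 1e6 of the deposited total, however, the IFE knockouts were at 55.2 (E358) and 25.3 (E359) and the ORS knockouts at 33.9 and 32.8, so those groups overlapped.

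EGFR works with partner receptors of its family, and their levels per kb of merged exon set it in context. In IFE controls Egfr was at 11.96 ± 2.50 CPM per kb, Erbb2, a partner without a known ligand, at 14.0 ± 0.529, and Erbb3, a partner with an impaired kinase, at 22.2 ± 3.68 (SD, n = 2 each). In HFSC controls Egfr was at 36.2 ± 2.59, Erbb2 at 13.8 ± 1.09 and Erbb3 at 30.7 ± 5.93. In ORS controls Egfr was at 23.1 ± 1.86, Erbb2 at 10.3 ± 0.927 and Erbb3 at 24.1 ± 0.924. Egfr was thus above Erbb2 in HFSC and ORS without overlap, while its range met that of Erbb3 in both.

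Neither partner receptor was called in a knockout. The log2 fold change of Erbb2 was -0.19 in IFE, -0.10 in ORS and 0.15 in HFSC (standard errors 0.33, 0.33 and 0.21), and that of Erbb3 0.16, -0.32 and -0.18 (0.31, 0.31 and 0.20), with limma adjusted p-values of 0.886 or more. Erbb4 had 0 reads in all 12 libraries, which allows up to 0.268 CPM. In the IFE knockouts, with Egfr at 0.014 CPM per kb, Erbb2 was at 12.5 ± 2.84 and Erbb3 at 25.2 ± 7.34 CPM per kb (SD, n = 2 each).

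**Figure D4:**
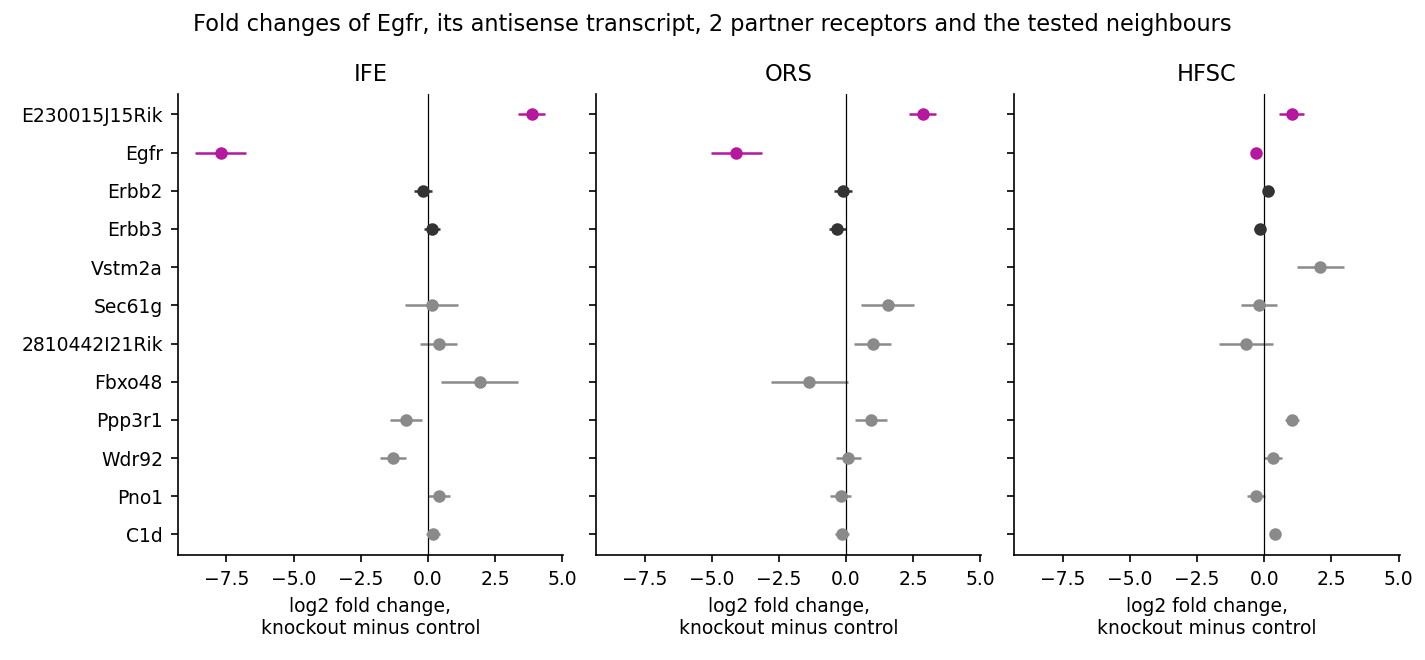
Points are log2 fold changes of knockout against control with their standard errors, for Egfr and E230015J15Rik, for Erbb2 and Erbb3, and for the neighbouring genes tested, in each compartment. Egfr lies at -7.72 and the antisense transcript at 3.87 in IFE, while the neighbours span -1.29 to 1.94.

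The genes beside Egfr on the chromosome were listed with their values. The files hold 10 further genes wholly within 500 kb of Egfr, 2 before it and 8 after it. In each compartment 7 of them were tested and 0 were called by limma or limma-voom. Their log2 fold changes ran from -1.29 to 1.94 in IFE, from -1.37 to 1.55 in ORS and from -0.68 to 2.08 in HFSC, with medians of 0.18, 0.09 and 0.33.

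The nearest is 2810442I21Rik, on the minus strand 17.0 kb after Egfr, a noncoding RNA that GENCODE names Eldr. It stood at 10.8 and 5.80 CPM in IFE controls and 11.5 and 9.82 CPM in IFE knockouts, so the groups overlapped. The ORS controls had 6.76 and 12.4 CPM of it and the ORS knockouts 16.6 and 21.2 CPM, without overlap, with a log2 fold change of 0.99 (standard error 0.68, limma adjusted p = 1). In HFSC it was at 1.68 CPM or below.

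Fbxo48, an F-box protein gene 33.2 kb after Egfr, had 6.82 CPM in IFE knockout E358 and 0 in the other IFE libraries. Ppp3r1, the regulatory subunit of calcineurin, was at 42.7 and 46.1 CPM in the HFSC controls L136 and L94 and 76.3 and 107 CPM in the knockouts L95 and L97 (log2 fold change 1.02, standard error 0.25, limma adjusted p = 0.42). In IFE its change was -0.81 (standard error 0.61). Sec61g, a subunit of the protein translocon, lies 244 kb before Egfr, and its changes were 0.14, 1.55 and -0.20 in IFE, ORS and HFSC. None of the 3 passed the test.

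Further along, Wdr92 had log2 fold changes of -1.29, 0.09 and 0.33, Pno1, a ribosome assembly factor, 0.42, -0.20 and -0.31, and C1d, a cofactor of the RNA exosome, 0.18, -0.15 and 0.40. Vstm2a, 325 kb before Egfr, was tested in HFSC only, where it had 0 reads in the controls and 1.90 and 1.37 CPM in the knockouts. Plek and Cnrip1 had 0 reads in all 12 libraries. Differences between the neighbours and the antisense transcript were not tested.

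Genes of the EGFR pathway were counted from a list of 58 in 8 roles, of which 57 are in the files (Hras was not analysed here). Of these, 52 were tested in IFE and ORS and 53 in HFSC, and limma called 0 higher and 0 lower in each compartment, as did limma-voom. At an unadjusted p under 0.05 there were 1 higher and 3 lower in IFE, 1 higher and 3 lower in ORS, and 7 higher and 0 lower in HFSC. Over all genes tested, 7.53%, 3.40% and 7.64% were under that p in the 3 compartments. The median log2 fold change was -0.08 in IFE, -0.15 in ORS and 0.24 in HFSC, against -0.03, -0.03 and 0.01 over all genes tested.

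Among the ligands, Hbegf, the gene of HB-EGF, was at 13.3 (E341) and 6.995 CPM (E344) in ORS controls, and at 1.56 (E358) and 0.377 CPM (E359) in ORS knockouts, with a log2 fold change of -2.92 (standard error 1.47, limma adjusted p = 1). The HFSC controls had 5.13 and 11.1 CPM of it, and the HFSC knockouts 13.6 and 22.4 CPM (1.16, standard error 0.54, adjusted p = 0.673). Epgn, the gene of epigen, had changes of 1.55, -0.93 and -0.69 in IFE, ORS and HFSC. Of the sheddases that free ligands from the membrane, Adam10 had changes of 0.21, -0.17 and 0.04 and Adam17 of -0.11, -0.12 and -0.28.

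Downstream of the receptor, the adaptor Shc1 had log2 fold changes of -0.64, -0.22 and -0.41 and the RAS activator Sos1 of -0.15, 0.57 and 0.22. Nras had changes of -0.00, -0.24 and 0.19. Braf, a kinase between RAS and ERK, was at 140 and 142 CPM in IFE controls and 59.99 and 96.7 CPM in IFE knockouts, a change of -0.88 (standard error 0.28, limma adjusted p = 0.51). Pik3r1, a regulatory subunit of PI3K, had changes of 0.26, 0.37 and -0.01 and Stat3 of 0.04, 0.12 and 0.13.

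Receptor inhibitors, which bind or degrade EGFR, had negative fitted changes for 6 of 6 genes in IFE (median -0.76) and in ORS (median -0.43), and positive ones for 5 of 6 in HFSC (median 0.49). The share of all tested genes with these signs was not computed, so nothing is read from these counts. None of the 6 genes was called. Lrig1, the highest of them, was at 99.7 and 114 CPM in IFE controls and 99.9 and 101 CPM in IFE knockouts. Its change there was -0.08 (standard error 0.22), and that of Socs4 was -0.06 (standard error 0.58). Cblb, a ubiquitin ligase, had changes of -0.50, -0.54 and 0.47.

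The 17 genes that ERK induces had medians of -0.11 in IFE, -0.20 in ORS and 0.65 in HFSC over the 16 tested in each. Fos, an immediate early gene, was at 114 and 49.5 CPM in ORS controls and 16.4 and 21.7 CPM in ORS knockouts (log2 fold change -1.96, standard error 0.56, limma adjusted p = 1). In HFSC its change was 0.15. Ccnd1, the gene of cyclin D1, had changes of 0.07, -0.34 and -0.15.

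Genes at an unadjusted p under 0.05, named after their values were seen, included in IFE Spry1 (2.44), Braf (-0.88) and Cbl (-2.65). In ORS they were Egf (3.32), Rhbdf1 (-1.38), Egr1 (-2.88) and Fos (-1.96). In HFSC they were Tgfa (1.77), Cbl (0.88), Dusp6 (1.41), Spry2 (0.76), Etv4 (2.33), Etv5 (1.80) and Fosl1 (3.90), each value a log2 fold change of knockout against control. The smallest limma adjusted p of the list was 0.51 in IFE, 1 in ORS and 0.194 in HFSC, so none is counted as changed.

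**Figure D5:**
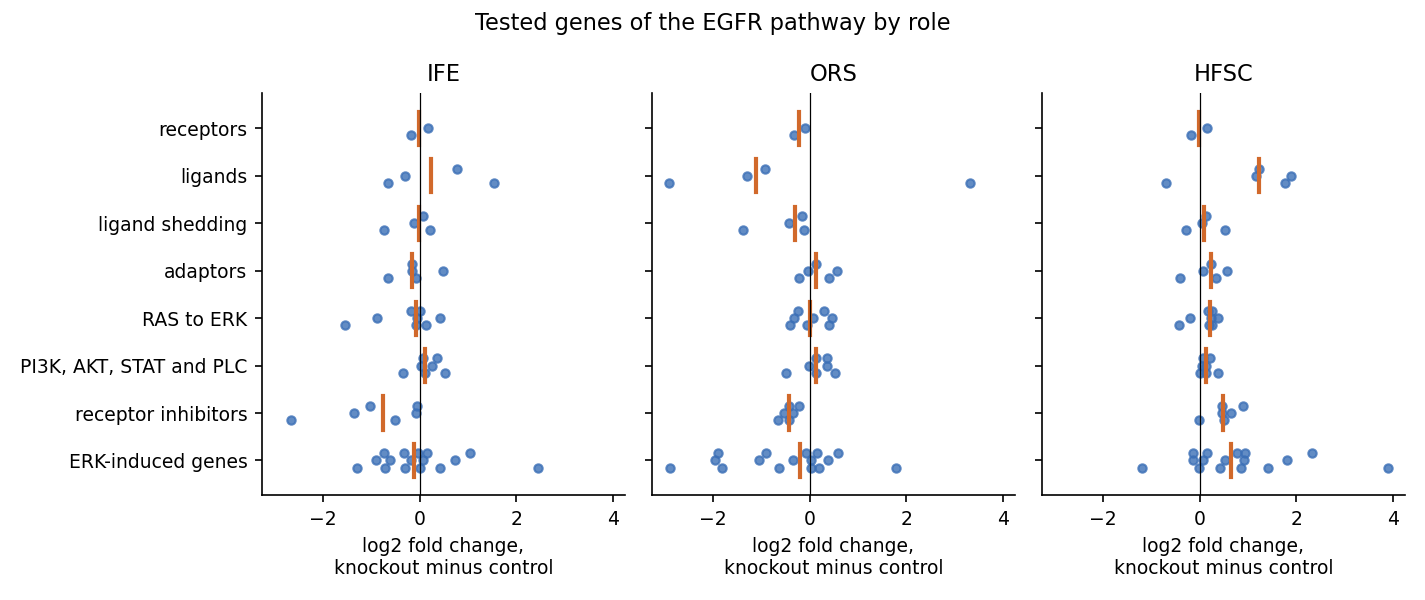
Points are the log2 fold changes of the tested pathway genes in each role and compartment, and vertical bars are role medians. The receptor inhibitors lie below 0 in IFE and ORS, 6 of 6 in each, some of them only slightly. None of the points passed the test.

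The genes whose level followed that of Egfr most closely were listed by Pearson r of log2(CPM + 0.5), as a description without a p-value. Over the 12 libraries, which share compartments, genotypes and title codes, the first 5 of 11274 genes averaging at least 5 CPM were Acp2 (r = 0.946), Zfp182 (0.934), Nlrx1 (0.933), Muc15 (0.925) and Camk4 (0.915). Muc15, a membrane mucin gene, was at 23.4 and 25.3 CPM in IFE controls and 1.35 and 0.559 CPM in IFE knockouts, and at 13.1 CPM in ORS knockout E358 and 26.3 CPM in E359. Camk4, a calcium-dependent kinase gene, had 0 reads in both IFE knockouts, and 1.52 CPM in E358 against 20.7 CPM in E359. Both were selected for their likeness to Egfr over these same libraries, so their order in this pair is no separate result. With Spearman's rank correlation 0 of these 5 remained in the first 5, and on the deposited scale 3 did.

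E230015J15Rik lay at the other end, with r = -0.833 over the 12 libraries, the sixth lowest, and a Spearman's rho of -0.58. These libraries hold the contrast for which the pair was chosen, so this r and its rank are no separate result. Over the 6 control libraries alone the r of E230015J15Rik with Egfr was 0.43, rank 3824 from the top of 11268 genes. The first 5 genes over the controls were Papss1 (0.999), Mon2 (0.997), Gm17509 (0.995), Tenc1 (0.995) and Spg20 (0.995). Of 11268 genes, 573 exceeded 0.9 there, so a high r over 6 libraries of 3 compartments was common. By Spearman's rank correlation 4 of these 5 were among 92 genes tied at 1, and on the deposited scale 0 of them remained in the first 5.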

How the data were processed

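Sorted mouse skin cells gave RNA that was extracted with PicoPure and amplified with SMARTer Ultra reagents, per the labels' protocols, and sequenced as 150 bp pairs. The deposited values are log2 reads per 1e6 of a library total, 1 per gene, made by the authors. The mm10 build and the tools DESeq2 and Trim Galore are listed, without roles, in the submitters' processing notes. Aligner, counter and any use of strand: not given in the sources used here. Genes with 0 reads were deposited as if they had 0.9.

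Each gene's whole read number was computed back from its log2 value (at least 99.99% fell within 0.2 of a whole number). CPM are these reads per 1e6 reads in genes, with TMM factors (30% trimmed on ratios, 5% on levels). Knockout was compared with control, two-sided, by limma 3.58.1 in R 4.3.3 with a trended and robust prior (statmod 1.5.0), on log2(CPM + 0.5). Tested genes had at least 10 reads, scaled to a library of median size, in 2 or more libraries and 15 over all. IFE and ORS shared a fit of 8 libraries (4 residual degrees of freedom), and HFSC had its own of 4 (2 residual degrees of freedom). The codes E341, E358 and E359 each occur in IFE and in ORS. The shared fit treated these libraries as independent, so its degrees of freedom may be overstated. The test across genes was also run on simulated counts. These had independent libraries and the same relative spread for every gene, and the real libraries may differ in both. The libraries of each pair differed by more than sampling noise (chi-square 41.4 to 140.2 per degree of freedom). Each was counted once, although this spread does not show that they stem from different animals.

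The 2 genes, the pathway list, the marker lists and the rules were chosen with earlier results of these data known. Named are both genes, all genes within 500 kb of Egfr, in each pathway role the 2 tested members with the highest control level and any member called, all partner receptors, and the 5 genes most like Egfr. Genes were matched to GENCODE M21 by coordinates (57.2% of genes, both members among them), and both promoters to RefSeq by symbol. Alternatives were other pseudocounts, scalings, filters and fits, limma-voom, and leaving out each library. Some genes that these rules would name are not reported here.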

Additional observations from a re-analysis of the deposited data

Results flagged for a closer look

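For 3 pathway genes both knockout libraries lay on one side of both controls in one compartment and on the other side in another. Hbegf had a log2 fold change of -2.92 in ORS and 1.16 in HFSC. Braf had -0.88 in IFE and 0.37 in HFSC. Cblb had -0.54 in ORS and 0.47 in HFSC. Separation without overlap in a single compartment was common over all tested genes. It was 13.6% higher and 17.1% lower in IFE, 14.6% and 16.8% in ORS, and 19.7% and 18.3% in HFSC. The share of all genes that separate in opposite directions was not computed, so nothing is read from these genes. None passed the limma test in either compartment, and the difference between compartments was not tested. HFSC knockouts carry another labelled genotype than the IFE and ORS knockouts.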

How the results depend on the processing

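The direction of the log2 fold change of Egfr and of E230015J15Rik held under each alternative run, in all 3 compartments. For Egfr in IFE the size moved with the pseudocount, to -6.88 at 1 CPM and -9.36 at 0.1 CPM, to -6.13 on the deposited scale and to -10.13 with limma-voom, since the knockouts have almost no reads. It ranged from -8.07 to -7.36 when 1 library was left out. For Egfr in ORS the alternatives gave -5.96 to -2.23, and in HFSC -0.37 to -0.23. The range for E230015J15Rik was 3.32 to 4.41 (IFE), 2.45 to 3.26 (ORS) and 0.52 to 1.51 (HFSC).

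Genes called in IFE, 0 as reported, came to 3 with a filter at 50 reads, 5 with IFE fitted alone and 24 with all 12 libraries in 1 fit, and to 0 to 53 with 1 library left out. In ORS they came to 0 to 2 with 1 library left out. In HFSC, 5 as reported, they came to 1 without a filter, 1 with all 12 libraries, 0 with limma-voom and 1 to 29 with 1 library left out. Pathway genes called stayed at 0 under each alternative. The causes were not tested. When 1 library was left out, the lone library was assumed to vary like the others. Knockout and control could not be paired because no knockout library shares its code with a control, and replicate numbers were given in accession order. The codes that IFE and ORS libraries share were not modelled. With 2 libraries per group, and sex that differs with genotype in IFE and HFSC, small differences were not detectable. Large ones could be missed as well. In IFE and ORS 0 of 14449 genes were called, although Egfr had log2 fold changes of -7.72 and -4.10.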
